A study of Mus musculus with 7 samples.

Results

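The genes described here are 38 endothelial, blood-brain barrier and mural cell genes, out of 52636 genes counted in each library. They were chosen by name as genes of brain endothelial cells (29 genes) and of pericytes and vascular smooth muscle (9 genes). All 38 had enough counts to be tested, among 21817 genes tested in all, and their counts in a library ranged from 19 to 10620.

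Poly(A) RNA from the dorsal midbrain of 7 mice was sequenced to compare gene expression with and without the transcription factor Brn3b, the product of Pou4f2. The 3 control mice were Brn3b flox/+::En1-Cre (heterozygote) and the 4 conditional knockout (cKO) mice were Brn3b flox/-::En1-Cre (homozygote). Both groups therefore carried 1 conditional allele, which expresses an alkaline phosphatase reporter after recombination, and the En1-Cre driver, which acts in the midbrain and hindbrain. Among controls, A4 was a P3 mouse and the others, A2 and A6, were P4 mice. Among cKO mice, B7 and B9 were P2 mice, an age no control had, and the others, B1 and B8, were P4 mice. The depth, as counts on genes, ran from 23588248 in A2 to 40411968 in A4 among controls (A6, 26577011), and from 28116582 in B1 to 87572085 in B9 among cKO libraries (B8, 39251318; B7, 67792192). Levels are given as CPM, the count of a gene relative to the TMM-scaled size of its library, and levels of different genes are compared only per kilobase (kb) of exon.

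Brain capillaries are lined by endothelial cells that are sealed to each other by tight junctions and carry nutrients and drugs through transporters, which together form the blood-brain barrier. Pericytes sit on these capillaries and are recruited by platelet-derived growth factor B from the endothelium, and smooth muscle cells surround the arterioles. In the early postnatal mouse brain the vessel network is still growing, under the control of VEGF, angiopoietin and Wnt signals from the surrounding tissue.

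The deleted gene followed the labels. Pou4f2 was at 46.5, 47.4 and 45.8 CPM in the controls A2, A4 and A6, and at 9.65, 9.67, 10.6 and 11.6 CPM in the cKO libraries B1, B7, B8 and B9. The groups did not overlap, and the log2 fold change was -2.16 ± 0.132 (SE; edgeR adjusted p = 0.000566). Of the other dorsal midbrain genes, Tfap2b was the most abundant per kb, at 96.5 CPM per kb in controls, and Otx2, Pou4f1 and En2 were present in all 7 libraries. En1 was at 12.3 CPM in B8, 2.78 to 7.78 CPM in the other cKO libraries and 3.05 to 3.48 CPM in controls. En2 was at 11.1 CPM in B1, 22.4 to 27.4 CPM in the other cKO libraries and 11.2 to 15.8 CPM in controls. Forebrain genes were low in sum, at 94.2 to 121 CPM per library.

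The cKO library B8 stood apart from the other cKO libraries, although its Pou4f2 level was that of a cKO mouse. On the first principal component of all genes tested, which held 60.1% of the variance, B8 was at -42.2, among the controls (-33.3, -81.2 and -42.0), while B1, B7 and B9 were at 49.4, 78.7 and 70.6. Over all genes, the chi-square per degree of freedom between B8 and the control A6 was 6.6, the lowest of all pairs of the 7 libraries, against 86.4 to 241.9 between B8 and the other cKO libraries, a measure that also grows with depth. Among the vascular genes, B8 lay within the range of the controls for 22 of 38, against 11 for B1, 11 for B7 and 12 for B9. The share over all genes tested was not counted, so nothing particular to the vascular genes can be read from these counts. Results are therefore given with and without B8, a choice made with these values known. Which libraries were prepared or sequenced together is not given in the sources used here, and its part in these values was not tested. Eng, Sox17, Egfl7, Slc2a1, Abcb1a, Abcc9, Notch3 and Tagln share exon sequence with another gene, mostly on the opposite strand, and their counts are uncertain to that extent.

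With all 7 libraries, none of the 38 vascular genes was called by edgeR's quasi-likelihood test (0 of 38; 0.00458% of all genes tested were called, which is Pou4f2 alone), and their lowest adjusted p was 0.138. At an unadjusted p under 0.05, 7 were higher and 1 was lower in cKO, beside 16.7% and 13.7% of all genes tested. DESeq2 called 3 of the 38 (10.4% of the genes it tested): Tjp1 and Abcc9 rose (7.41% of all) and Ly6a fell (3.04% of all). Limma-voom with sample weights called 15 of the 38 (48.5% of all genes tested). Its weight for B8 was 0.167, against 0.857 to 2.893 for the other libraries, so B8 counted little in that fit. Without B8, edgeR called 14 of the 38, or 8 higher and 6 lower, where it called 46.7% of all genes tested, 23.7% higher and 23.1% lower. Nothing particular to the vascular genes can be read from these counts. The groups did not overlap for 4 genes that were higher (Flt1, Tek, Pdgfrb and Notch3; 6.03% of all genes tested) and 1 that was lower (Ly6a; 8.01% of all). The median log2 fold change was 0.13 over the 38 genes and 0.00 over all genes tested.

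The vascular genes were split by exon length. The 19 short genes, with 1.21 to 4.22 kb of exon, had a median log2 fold change of -0.17, and the 19 long genes, with 4.55 to 16.06 kb, had one of 0.34. The value of the short genes was 0.01 without the control A4 and 0.00 among P4 mice, while the long genes were at 0.41 and 0.25. The P4 set leaves out A4, and its cKO mice were B1 and B8. For the short genes their median differences from the mean of the controls were -0.42 and 0.13 (log2 CPM). The direction of the short genes thus depended on A4 and on the mice compared, and a part of age was not tested. Ocln (4.22 kb) was the longest of the short genes and Rgs5 (4.55 kb) the shortest of the long ones. Without B8 the medians were -0.41 and 0.42, and all 6 genes called lower (Ly6a, Cldn5, Sox18, Mfsd2a, Egfl7 and Pdgfb) were short, while all 8 called higher (Rgs5, Tek, Pdgfrb, Abcb1a, Tjp1, Abcc9, Kdr and Flt1) were long. Endothelial genes were among both the lower and the higher ones.

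Library by library, the short genes had a median difference from the mean of the controls of -0.42 (log2 CPM) for B1, -0.32 for B7, -0.13 for B9 and 0.13 for B8. For the long genes it was 0.19 in B1, 0.48 in B7, 0.68 in B9 and 0.19 in B8. The controls A2, A4 and A6 were at -0.19, 0.25 and -0.16 for the short genes and at -0.08, 0.10 and 0.01 for the long ones. The short genes were below the long genes by the widest margin in B1, B7 and B9, and the control A4 departed from the other controls in the opposite sense.

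A trend with length was also present over all genes tested. When all genes tested were divided by exon length into 5 bins of like size, the median log2 fold change went from -0.32 in the shortest bin to 0.37 in the longest, and without B8 from -0.47 to 0.47. Across genes, which are not independent replicates and here share libraries, depth and base composition, Pearson's r of the log2 fold change with log2 exon length was 0.68 over the 38 vascular genes (Spearman's rho 0.67) and 0.25 over 21775 genes with a known length (rho 0.37). With GC content r was -0.36 (rho -0.46) over the 38 genes and -0.27 (rho -0.31) over all. For single libraries set against the mean of the controls, B1 had an r with length of 0.70 over the 38 genes, B7 had 0.66, B9 had 0.67 and B8 had 0.10, and the control A4 had -0.33. B8 thus had the weakest relation among the cKO libraries. After a smooth trend of GC content and length had been removed from each library, with all 7 libraries kept, the medians of the short and the long vascular genes were -0.06 and 0.20, against -0.17 and 0.34 before, and r with length was 0.42 over the 38 genes (rho 0.35) and -0.02 over all genes tested (rho 0.07). The relation over the vascular genes was not tested against that over all genes, and length and GC content were not separated.

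**Figure D1:**
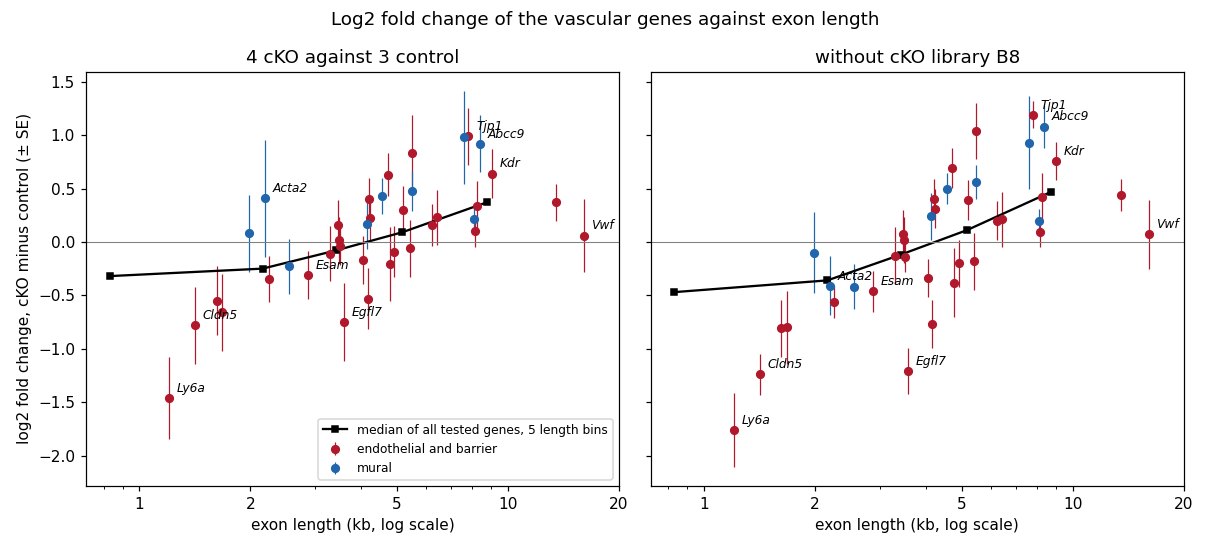
Log2 fold change (cKO minus control, bars are SE) of the 38 vascular genes against exon length in kb on a log axis, with all libraries at left and without B8 at right. Black squares are medians of all genes tested in 5 bins of exon length, from -0.32 to 0.37 at left and from -0.47 to 0.47 at right, and both the medians and most vascular genes are higher at greater length.

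**Figure D2:**
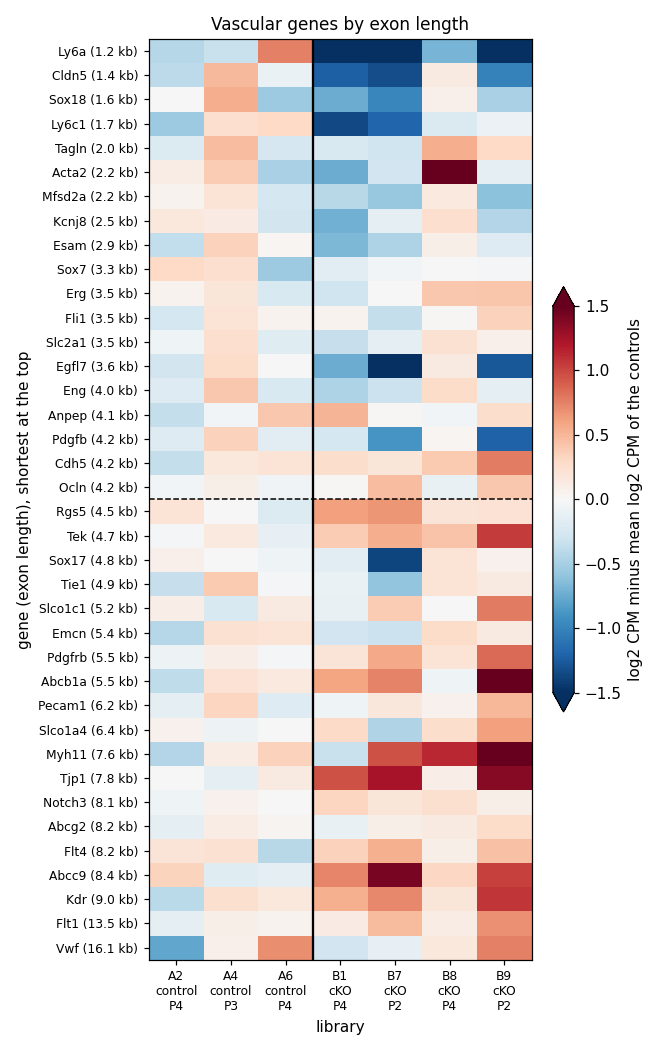
Difference of each vascular gene's log2 CPM from the mean of the controls in each library, with genes ordered from the shortest at the top to the longest and the dashed line between the 19 short and 19 long genes. B1, B7 and B9 are mostly blue (lower) at the top and red (higher) at the bottom, and B8 is close to the controls for most genes.

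Among the junction and adhesion genes, Cldn5 and Tjp1 stood on opposite sides in B1, B7 and B9. Cldn5, the main claudin of the brain endothelial tight junction and the most abundant of the 38 genes per kb (52.9 CPM per kb in controls), was at 55.1, 102 and 67.7 CPM in controls and at 31.1, 28.7, 79.4 and 35.9 CPM in B1, B7, B8 and B9. B8 was inside the control range and the other cKO libraries were below it. The log2 fold change was -0.78 ± 0.359 (SE; edgeR adjusted p = 0.173) with all libraries and -1.24 without B8, where Cldn5 fell (edgeR adjusted p = 3.10e-04; 3.14e-09 to 0.989 over the alternatives). With all libraries it was -0.35 after the trend of GC content and length had been removed. It was -0.49 without the control A4, -0.42 for the controls against the P4 cKO mice and -0.15 among P4 mice. The P4 cKO mice were B1 (31.1 CPM) and B8 (79.4 CPM), so B8 weighed more in both P4 comparisons. The comparison among P4 mice also left out A4. The size of the Cldn5 difference thus depended on A4 and B8, and a part of age was not tested apart from them. Esam, a short adhesion gene of endothelial tight junctions, was at 12.7, 20.7 and 16.8 CPM in controls and at 10.3, 11.9, 17.5 and 14.4 CPM in B1, B7, B8 and B9. The groups overlapped, and its log2 fold change of -0.31 ± 0.229 was not called by edgeR with B8 or without it (-0.46). Tjp1, which encodes the scaffold ZO-1 and is also expressed outside vessels, was at 48.7, 44.0 and 53.0 CPM in controls and at 94.4, 114, 51.8 and 125 CPM in B1, B7, B8 and B9. Again B8 alone among cKO libraries was within the controls. The log2 fold change of Tjp1 was 0.99 ± 0.267 (edgeR adjusted p = 0.138; DESeq2 adjusted p = 0.0195; 2.39e-15 to 0.989 over the alternatives). It was 0.60 once the trend of GC content and length had been removed, and 0.52 among P4 mice. Cdh5 (VE-cadherin), Pecam1, Ocln and Emcn, the others of this group, had log2 fold changes from -0.06 to 0.40, and edgeR called none with all libraries or without B8.

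Of the receptors, Eng, a co-receptor of the TGF-beta family, was the most abundant per kb. It was at 19.3, 29.3 and 18.8 CPM in controls and at 15.9, 17.6, 26.7 and 20 CPM in B1, B7, B8 and B9, with overlapping groups and a log2 fold change of -0.17 ± 0.226. Tek, the angiopoietin receptor Tie2, was at 9.13, 10.3 and 8.58 CPM in controls and at 12.1, 13.6, 12.6 and 19.3 CPM in B1, B7, B8 and B9. Every cKO library, B8 included, was above every control. Its log2 fold change was 0.63 ± 0.203 (edgeR adjusted p = 0.138; DESeq2 adjusted p = 0.0508), and without B8 it rose by 0.69 (edgeR adjusted p = 0.01; 0.00206 to 0.989 over the alternatives). Kdr, the main signaling receptor of VEGF-A (0.64), and Flt1, a decoy receptor for the same ligand (0.37), were also called higher by edgeR without B8, at 0.76 and 0.44. With all libraries, removing the trend of GC content and length took Flt1 from 0.37 to -0.10, Kdr from 0.64 to 0.26 and Tek from 0.63 to 0.45. Tie1 (-0.09) and Flt4 (0.34) were not called by edgeR with all libraries or without B8, and limma-voom called Flt4 higher (0.55; limma-voom adjusted p = 0.0441; 0.0441 to 0.989 over the alternatives).

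Of the 5 endothelial transcription factors, edgeR called none with all libraries and 1 without B8, Sox18, which was lower (23.1% of all genes tested were). Sox18, the shortest of them and the most abundant per kb, was at 6.02, 8.79 and 4.13 CPM in controls and at 3.56, 3.04, 6.38 and 4.28 CPM in B1, B7, B8 and B9. The groups overlapped, and the log2 fold change was -0.55 ± 0.322 with all libraries, which became -0.07 once the trend had been removed, and -0.81 without B8, where it fell (edgeR adjusted p = 0.0274; 0.0121 to 0.998 over the alternatives). Its relatives Sox17 (-0.21) and Sox7 (-0.11) and the ETS factors Erg (0.16) and Fli1 (0.02) were not called by edgeR with B8 or without it.

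Of the secreted proteins, Egfl7, an endothelial matrix protein whose gene hosts the microRNA miR-126, was at 25.0, 36.5 and 30.2 CPM in controls and at 18.1, 9.62, 33.0 and 12.5 CPM in B1, B7, B8 and B9. B8 was the only cKO library within the controls. The log2 fold change was -0.75 ± 0.368 with all libraries (edgeR adjusted p = 0.193), which became -0.55 once the trend had been removed, and without B8 Egfl7 fell to 43.3% of the control level (-1.21; edgeR adjusted p = 7.53e-04; 1.27e-07 to 0.989 over the alternatives). Pdgfb, the ligand that recruits pericytes, had a log2 fold change of -0.53 ± 0.288 (-0.27 once the trend had been removed) and was called lower without B8 (-0.77). Vwf encodes a clotting factor carrier and has the greatest exon length of the 38 genes. It was nevertheless at 0.06 ± 0.344, close to 0.

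The barrier transporters were led per kb by Slc2a1, the glucose transporter GLUT1, at 37.2, 46.7 and 34.6 CPM in controls and at 31.0, 35.5, 45.9 and 41.4 CPM in B1, B7, B8 and B9. These ranges overlapped almost fully (log2 fold change -0.04 ± 0.174). Abcb1a, which encodes the drug efflux pump P-glycoprotein, was at 5.06, 7.69 and 7.30 CPM in controls and at 9.90, 11, 6.28 and 20.3 CPM in B1, B7, B8 and B9, highest in B9. Its log2 fold change was 0.83 ± 0.361 (edgeR adjusted p = 0.159), and it rose by 1.04 without B8 (edgeR adjusted p = 0.00673; 2.51e-04 to 0.989 over the alternatives). With all libraries, removing the trend of GC content and length took Abcb1a to 0.54. Mfsd2a, a lysolipid transporter that restrains transcytosis, was at -0.35 ± 0.215 (-0.12 once the trend had been removed) and was called lower without B8 (-0.56). The organic anion transporters Slco1a4 (0.23) and Slco1c1 (0.30) and the efflux pump Abcg2 (0.10) were not called by edgeR with B8 or without it, but Slco1c1 was higher in the P2 cKO mice than in the controls (0.57; edgeR adjusted p = 0.00937; 0.00937 to 0.989 over the alternatives), a comparison in which edgeR called 46.9% of all genes tested. Slco1c1 was at -0.05 in the P4 cKO mice against the controls and at -0.16 among P4 mice, so its direction depended on the ages used. Counts of Abcb1a may be shared with its close copy Abcb1b, and it overlaps a transcript on the other strand.

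Ly6c1 and Ly6a encode surface proteins of the Ly6 family. Ly6c1 was at 3.48, 6.12 and 6.35 CPM in controls and at 1.99, 2.22, 4.41 and 4.83 CPM in B1, B7, B8 and B9, with overlapping groups and a log2 fold change of -0.66 ± 0.364 that edgeR did not call, and limma-voom and DESeq2 without B8 did (limma-voom -0.85; limma-voom adjusted p = 0.0475; 0.0439 to 0.989 over the alternatives). Ly6a is known as Sca-1 and has the least exon length of the 38 genes. It was at 2.45, 2.62 and 5.62 CPM in controls and at 1.14, 0.931, 2.02 and 1.1 CPM in B1, B7, B8 and B9. All 4 cKO libraries were below all 3 controls, and the log2 fold change was -1.46 ± 0.386 (edgeR adjusted p = 0.138; DESeq2 adjusted p = 0.0162; 8.16e-06 to 0.989 over the alternatives). With all libraries it was -1.38 after the trend of GC content and length had been removed, and -0.97 without the control A6, which had the highest level. Reads of these similar genes may be divided between family members, so their levels are uncertain.

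Of the 6 pericyte genes, edgeR called none with all libraries and 3 without B8, all higher (23.7% of all genes tested were), and DESeq2 called 1, also higher (7.41% of all genes tested were). Rgs5, a regulator of G protein signaling and the most abundant per kb, was at 81.5, 71.5 and 61.7 CPM in controls and at 109, 112, 81.3 and 82.8 CPM in B1, B7, B8 and B9. B1 and B7 were well above the controls, and B8 and B9 were close to the highest of them. The log2 fold change was 0.43 ± 0.169 (edgeR adjusted p = 0.142), and Rgs5 rose by 0.50 without B8 (edgeR adjusted p = 0.012; 0.00322 to 0.989 over the alternatives). Abcc9, the regulatory subunit of the pericyte potassium channel, was at 12.5, 8.77 and 8.95 CPM in controls and at 16.5, 26.7, 12.3 and 20.3 CPM in B1, B7, B8 and B9. B8 was just below the highest control. Its log2 fold change was 0.92 ± 0.268 (edgeR adjusted p = 0.138; DESeq2 adjusted p = 0.0305; 1.08e-06 to 0.989 over the alternatives), whereas Kcnj8, the short gene for the pore of the same channel, was at -0.23 ± 0.253. Pdgfrb, the receptor for the recruiting ligand, was at 0.48 and was called higher without B8 (0.56), Notch3 at 0.21 and Anpep at 0.17. Once the trend of GC content and length had been removed, Rgs5 was at 0.20, Abcc9 at 0.50, Kcnj8 at -0.05 and Pdgfrb at 0.53. Summed over the 6 pericyte genes, the level was 179, 174 and 160 CPM in controls and 232, 245, 197 and 212 CPM in B1, B7, B8 and B9, above every control also in B8. The sum rests mainly on Rgs5 and Notch3, which are both among the long genes. The median log2 fold change of the 6 genes was 0.32, and 0.25 once the trend had been removed. The sum of the 24 other mural genes did not follow that of the pericyte genes. It was at 211 to 297 CPM in controls and 175 to 289 CPM in cKO, B8 being the highest cKO library. In whole tissue, the number of cells of a type, the RNA per cell and RNA of the same genes in other cell types cannot be told apart.

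None of the 3 smooth muscle genes was called by edgeR or DESeq2 with all libraries. Acta2, smooth muscle actin, was at 3.90, 4.70 and 2.56 CPM in controls and at 2.14, 2.95, 11.5 and 3.29 CPM in B1, B7, B8 and B9. B8 was far above every other library, and the log2 fold change turned from 0.41 with B8 to -0.41 without it, neither of which edgeR called. Myh11, smooth muscle myosin, was at 0.788, 1.17 and 1.39 CPM in controls and at 0.855, 2.14, 2.44 and 3.30 CPM in B1, B7, B8 and B9, with a log2 fold change of 0.98 ± 0.436 that edgeR did not call with B8 or without it; it was higher in the P2 cKO mice than in the controls (1.26; edgeR adjusted p = 0.0104; 0.0104 to 0.989 over the alternatives), where 46.9% of all genes tested were called. Tagln, at 0.776 to 1.43 CPM, had a log2 fold change of 0.08 and shares exon sequence with an antisense gene.

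**Figure D3:**
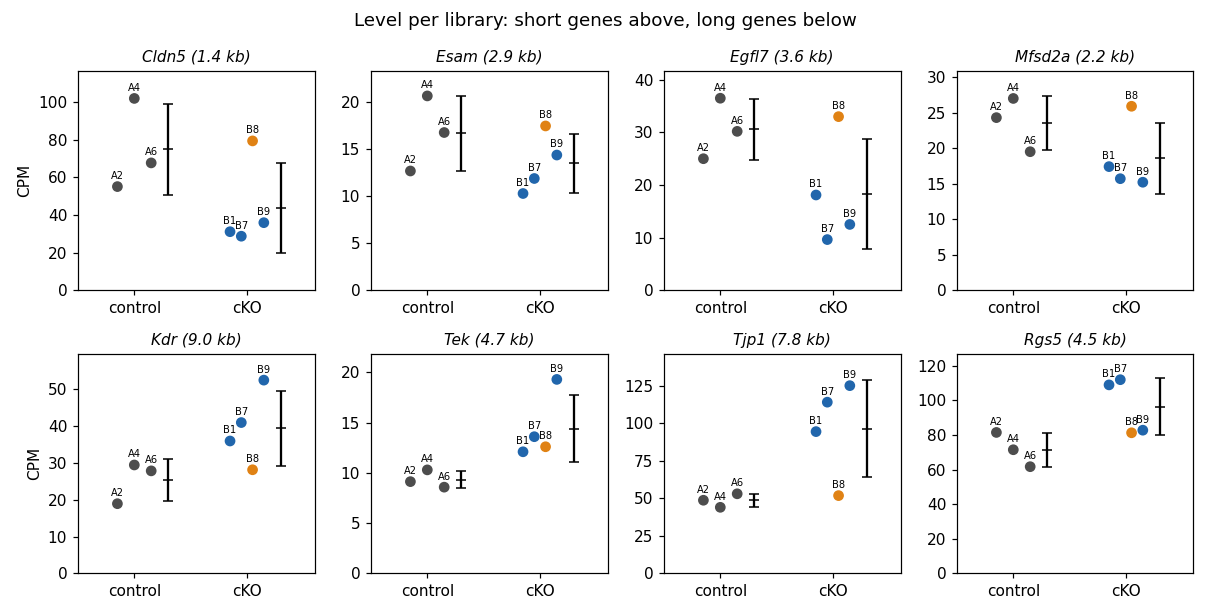
Level in CPM of 8 vascular genes in each library, with the mean and SD of each group beside the points and B8 in orange; Kdr and Mfsd2a were added after their values had been seen. The upper genes are short and the lower ones long, and Cldn5 is at 28.7 to 35.9 CPM in B1, B7 and B9 but at 79.4 CPM in B8.

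Summed over all 38 genes, the level was 646, 789 and 698 CPM in controls and 727, 779, 789 and 882 CPM in B1, B7, B8 and B9. The control mean was 711 ± 72.4 CPM (SD, n = 3) and the cKO mean 794 ± 64.6 CPM (SD, n = 4), with overlapping ranges. Summed as CPM per kb, it was 166, 223 and 179 in controls and 157, 162, 209 and 184 in B1, B7, B8 and B9. On this scale the ranges overlapped too, and B1 and B7 were below every control. The sum of the 29 endothelial genes was 534 ± 73.3 CPM in controls and 565 ± 73.8 CPM in cKO, a difference smaller than the spread within either group. Per kb this sum was 130, 188 and 148 CPM in controls and 112, 114, 166 and 143 CPM in B1, B7, B8 and B9. B1 and B7 were again below every control. The sums of all 38 and of the endothelial genes were thus higher in cKO as CPM but not per kb. Split by length, the short genes summed to 263, 381 and 289 CPM in controls and to 214, 202, 346 and 242 CPM in B1, B7, B8 and B9, while the long genes summed to 382, 408 and 409 CPM in controls and to 512, 577, 444 and 641 CPM. The sum of the short genes was below every control in B1, B7 and B9 and within the controls in B8. The sum of the long genes was above every control in every cKO library, by the least in B8.

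Further genes of vascular pathways were examined in 5 lists. Of 108 such genes, all tested, edgeR called none with all libraries (17 higher and 10 lower at an unadjusted p under 0.05, beside 16.7% and 13.7% of all genes tested), DESeq2 called 7, all higher (7.41% of all genes tested), and edgeR without B8 called 25 higher and 24 lower (23.7% and 23.1% of all genes tested). Their median log2 fold change was -0.01, and Pearson's r with log2 exon length was 0.67 over the 108 genes (Spearman's rho 0.66). Without B8, against the same 23.7% and 23.1% of all genes, the 17 genes of the Wnt pathway of the barrier had 7 called higher and 2 lower, the 20 angiogenic ligands and modulators 4 and 2, the 23 other endothelial genes 6 and 8, the 24 other barrier genes 6 and 5, and the 24 other mural genes 2 and 7. Both directions occurred in every list.

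In the Wnt list, Ctnnb1 (beta-catenin) was the most abundant per kb (log2 fold change 0.25), and the receptors Fzd6 (0.75) and Lrp6 (0.87) had the lowest p and rose by DESeq2. Among the angiogenic genes, the short ligand Vegfb was the most abundant per kb (-0.72), and Notch1 (0.92) and Angpt1, the ligand of Tek (0.64), had the lowest p, of which Notch1 rose by DESeq2. The other endothelial genes were led per kb by the scaffold gene Slc9a3r2 (-0.48). Cyyr1 (1.64) and the phosphatase gene Ptprb (0.98), which acts on Tek, rose by DESeq2. Cyyr1 was at 1.20, 1.17 and 1.31 CPM in controls and at 3.35, 3.51, 1.95 and 6.5 CPM in B1, B7, B8 and B9, so that B8 too was above the controls. Spock2, most abundant per kb of the other barrier genes, was at 0.08, and Slc7a1 (0.57), an amino acid transporter that rose by DESeq2, had the lowest p. Of the other mural genes, Vtn was the most abundant per kb (-0.56), and Atp13a5 (0.64), a pericyte gene that rose by DESeq2, and the short gene Ndufa4l2 (-0.98) had the lowest p. Once the trend of GC content and length had been removed, Lrp6 was at 0.26, Ptprb at 0.42 and Slc7a1 at 0.18. Fzd6 was then at 0.58, Notch1 at 0.71, Cyyr1 at 1.14 and Atp13a5 at 0.47.

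The levels of markers of other cell types in the tissue also differed between libraries, and their part in the vascular results was not tested. The 10 microglial genes, led per kb by C1qb, summed to 164, 194 and 243 CPM in controls and to 137, 99.0, 176 and 117 CPM in B1, B7, B8 and B9. None was called by edgeR with all libraries (5 at an unadjusted p under 0.05, all lower, beside 13.7% of all genes tested), DESeq2 called 2 lower (3.04% of all genes tested) and edgeR without B8 called 7 lower (23.1% of all genes tested). The 7 red blood cell genes, led by Hbb-bs, summed to 158, 499 and 133 CPM in controls and to 182, 62.4, 180 and 58.5 CPM in B1, B7, B8 and B9, with the control A4 highest and the P2 mice lowest. The 12 fibroblast genes, led by Igf2, summed to 539, 1037 and 936 CPM in controls and to 907, 549, 1076 and 975 CPM in B1, B7, B8 and B9, lowest in A2 and B7. These sums thus differed between libraries within each group. The median log2 fold change was -0.88 for the microglial, -1.13 for the red blood cell and -0.04 for the fibroblast genes. Once the trend of GC content and length had been removed, the medians were -0.65, -0.98 and -0.00.

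The 8 astrocyte genes, led by Aldoc, summed to 1059, 997 and 1018 CPM in controls and to 1302, 1220, 1067 and 1181 CPM in B1, B7, B8 and B9, so that every cKO library was above every control. The means were 1025 ± 31.6 CPM in controls and 1193 ± 97.7 CPM in cKO (SD, n = 3 and 4). Per kb the sums were 162, 160 and 160 CPM in controls and 177, 160, 168 and 154 CPM in B1, B7, B8 and B9. The groups overlapped on this scale, and B9 was below every control. Aldoc had a log2 fold change of -0.55. The median of the 8 was 0.16, and -0.14 once the trend of GC content and length had been removed. EdgeR called none of the 8 with all libraries, and DESeq2 called 1 higher (7.41% of all genes tested were). Without B8 edgeR called 3 higher and 1 lower (23.7% and 23.1% of all genes tested were). The 8 neuronal genes, led by Tubb3, summed to 6426 ± 369 and 6461 ± 400 CPM (SD, n = 3 and 4). Per kb they summed to 1530, 1786 and 1445 CPM in controls and to 1262, 1254, 1507 and 1194 CPM in B1, B7, B8 and B9. On this scale B1, B7 and B9 were below every control. Single neuronal genes differed in direction. Tubb3, with 1.87 kb of exon, had a log2 fold change of -0.51, and Map2, with 16.45 kb and chosen after its value had been seen, one of 0.81, while Rbfox3, with 5.82 kb and also chosen afterwards, was at -0.58. The choroid plexus list (led by Prlr) summed to 14.9 to 22.6 CPM per library, and its defining gene Ttr was at most 0.65 CPM. Of the lymphatic genes, Ccl21a was at 0 in every library, Pdpn, the most abundant per kb, was at -0.02, and Prox1 (0.93), chosen after its values had been seen, was called higher by DESeq2 and by edgeR without B8 (7.41% and 23.7% of all genes tested were). The forebrain list was led by Emx2, at 0.02.

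Promoters were examined for the motif bound by ETS factors, the family of Erg and Fli1, which act in endothelial cells. RefSeq promoters on GRCm38.p6, each of 300 bases (250 before and 50 after the start), were held for 25 of the 38 genes, 33 promoters in all. The motif CNGGAAGT, searched on both strands (ACTTCCNG on the other), was in 3 of the 33 (9.09%) and in 3131 of 32851 promoters of all genes (9.53%), so the share was close to that of promoters in general. No other motif was searched. The 3 matches were in 1 promoter each of Egfl7, Tie1 and Abcg2. The promoters of Egfl7 (chr2:26583615-26583914, plus strand), of Tie1 (chr4:118489800-118490099, minus strand) and of Cldn5 (chr16:18776597-18776896, plus strand; no match) are shown for an endothelial gene lower without B8, one that was not called, and the most abundant gene, with matches in capitals.
Egfl7: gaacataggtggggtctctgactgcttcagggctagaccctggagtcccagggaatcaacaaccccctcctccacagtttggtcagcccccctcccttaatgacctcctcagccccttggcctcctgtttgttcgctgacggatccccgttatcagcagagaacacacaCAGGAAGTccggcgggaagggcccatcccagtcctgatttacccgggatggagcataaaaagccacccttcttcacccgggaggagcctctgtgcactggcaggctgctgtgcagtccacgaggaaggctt
Tie1: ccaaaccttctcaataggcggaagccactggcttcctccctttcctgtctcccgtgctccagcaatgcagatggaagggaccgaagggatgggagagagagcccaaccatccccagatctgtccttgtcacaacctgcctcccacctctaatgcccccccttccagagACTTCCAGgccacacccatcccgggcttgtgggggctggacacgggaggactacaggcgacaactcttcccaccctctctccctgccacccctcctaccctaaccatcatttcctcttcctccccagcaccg
Cldn5: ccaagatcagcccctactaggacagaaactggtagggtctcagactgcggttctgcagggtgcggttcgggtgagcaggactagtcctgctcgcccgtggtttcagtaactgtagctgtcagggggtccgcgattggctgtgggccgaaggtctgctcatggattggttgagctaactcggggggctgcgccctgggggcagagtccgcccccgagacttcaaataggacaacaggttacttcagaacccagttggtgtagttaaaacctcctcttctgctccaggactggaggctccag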

How the data were processed

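The authors enriched poly(A) RNA, made strand-specific libraries, aligned the reads to GRCm38.p5 with TopHat2 and Bowtie2, and counted them per gene with HTSeq; the deposited values are raw counts. The strand option of the counting is not given in the sources used here, so genes that share exon sequence with another gene are uncertain. Entries that name no gene (30.98% to 38.18% of counts) were left out. Each pair of the 7 libraries, across groups too, was compared by chi-square, and none matched within sampling noise. Counts were tested in R 4.3.3 with edgeR 4.0.16 (filterByExpr, minimum count 10, TMM, quasi-likelihood test, Benjamini-Hochberg over all genes tested, calls at an adjusted p under 0.05), with DESeq2 1.42.0, limma 3.58.1 and other filters, scaling, ages and left-out libraries as alternatives. The trend of GC content and exon length was fitted per library with mgcv 1.9.3. Exon lengths are the merged length of all exons of a gene in GENCODE. They can exceed the longest transcript, as for Vwf (16064 against 8834 bases). An exact permutation test of 3 against 4 mice could not reach the threshold and was not used. The tests were checked on simulated data in which 200 genes were changed. The spread between mice was there set to a fixed small value, so that known changes could be recovered. The simulation held no trend of length or GC content and no library like B8, so it cannot judge the calls that move with B8. The vascular genes and lists were chosen with earlier results of these data known. Values in every library are given for Pou4f2, Cldn5, Esam, and the most abundant gene per kb and the lowest p of each group of vascular genes; from each further vascular list the most abundant per kb and the 2 with the lowest p are named, and from each list of other cell types the most abundant per kb and those at 0 in every library. Other names (among them Kdr, Mfsd2a, Cyyr1's values, Map2 and Ttr) were chosen after values were seen. The values of 1 gene that this rule names are not reported here.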

Additional observations from a re-analysis of the deposited data

Results flagged for a closer look

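In 7 of 90 results examined in the 4 cKO libraries, 1 library lay far from the other 3, and each time it was B8. Chance gives this in about 1 in 20 groups, or 4.5 of 90, and the results are not independent. B8 was the highest for Cldn5 (79.4 CPM, against 28.7 CPM in the lowest library), Acta2 (11.5 CPM, against 2.14 CPM), Slc9a3r2 (49 CPM, against 29.8 CPM) and Ndufa4l2 (3.4 CPM, against 1.26 CPM). It was the lowest for Ctnnb1 (423 CPM, against 603 CPM in the highest library), Angpt1 (7.27 CPM, against 13.9 CPM) and the sum of the Wnt list (878 CPM, against 1137 CPM). Cldn5, Slc9a3r2, Ndufa4l2 and Acta2 have short exons, and for Acta2 B8 was above the controls too. The control group of 3 was not examined in this way.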

How the results depend on the processing

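No paired analysis was possible because the labels give no replicate numbers, and the numbers used here only name the mice of a group. The number of genes called by edgeR was 1 with all libraries and 1 to 9867 when each library was left out in turn, the high value without B8. It was 1994 by DESeq2, 10583 by limma-voom with sample weights, 10425 for the controls against the P2 cKO mice, 0 among P4 mice and 9951 by DESeq2 without B8, an alternative chosen after the data were seen. In the same order, the vascular genes called were 0 with all libraries, 0 to 14, 3, 15, 16, 0 and 15, and the calls in the other lists, Pou4f2 included, were 1 with all libraries, 1 to 74, 13, 79, 85, 0 and 73. The other scaling, the filters, postnatal day as a covariate, the controls against the P4 cKO mice and the removal of the GC and length trend left these counts as they were. Which property of the libraries moves the counts was not tested.

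The median log2 fold change of the short vascular genes was -0.41 to 0.01 over left-out libraries (-0.41 without B8, 0.01 without A4) and -0.27 for the shortest 12 genes. For the long genes it was 0.26 to 0.42, and 0.35 for the longest 12.

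Of the 38 genes, 20 kept their direction in every alternative run on single genes and 18 did not; edgeR called no vascular gene with all libraries. Signs turned for Pecam1 (-0.02), Ocln (-0.04), Tie1 (0.04), Sox17 (0.04), Vwf (-0.16) and Slco1c1 (-0.05) against P4 cKO mice, and for Emcn (0.11), Tie1 (0.25), Eng (0.17), Sox17 (0.03), Vwf (-0.19), Pdgfb (0.07), Slc2a1 (0.10) and Slco1c1 (-0.16) among P4 mice. With the GC and length trend removed they turned for Pecam1 (-0.04), Flt1 (-0.10), Tie1 (0.09), Eng (0.07), Fli1 (-0.09), Vwf (-0.18), Slc2a1 (0.10), Slco1a4 (-0.10) and Abcg2 (-0.33). They also turned for Fli1 (-0.02), Sox7 (0.06) and Acta2 (-0.11) by limma-voom, for Fli1 (-0.01) and Vwf (-0.08) with postnatal day, for Acta2 (-0.27) and Tagln (-0.04) against P2 cKO mice, and for Acta2 (-0.40) and Tagln (-0.09) by DESeq2 without B8. Over left-out libraries the range spanned 0 for Emcn (-0.25 to 0.06), Tie1 (-0.26 to 0.13), Eng (-0.34 to 0.07), Fli1 (-0.11 to 0.15), Sox17 (-0.38 to 0.05), Sox7 (-0.34 to 0.03), Vwf (-0.25 to 0.46), Slc2a1 (-0.14 to 0.10), Anpep (-0.01 to 0.39), Acta2 (-0.41 to 0.67) and Tagln (-0.10 to 0.37). The cause was not tested. Pou4f2 was called lower in every alternative except among P4 mice (-2.18; edgeR adjusted p = 0.192), where fewer libraries were used.

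Genotype and age cannot be told apart at P2. The lowest counts of a vascular gene in a library were 19 for Myh11 and 20 for Tagln.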
